A study of Mus musculus with 12 samples.

Results

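The tricarboxylic acid cycle and its anaplerotic entries were followed through 29 genes, chosen by name from the gene annotation of the array, of 37074 gene names that its probes carry. They divide by role into 7 genes for the steps from acetyl-CoA to 2-oxoglutarate, 6 from 2-oxoglutarate to succinate, 7 from succinate to oxaloacetate, and 9 that fill, drain or shuttle the intermediates. The array holds 65 probes for them, of 56605, and 56 of these passed the filter on dim signal, among 30859 probes tested in all. All 29 genes kept a tested probe, and the brightest tested probe of each gene was well above background on all 12 arrays.

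RNA came from the hearts of male C57BL6/J mice, 3 in each of 4 groups, with 1 array per sample. Control mice (C) received neither agent. Diabetic mice (D) received streptozotocin, which destroys the insulin-producing cells of the pancreas, at 50 mg/kg per day for 5 days by intraperitoneal injection. Control mice with pargyline (C + P) and diabetic mice with pargyline (D + P) were given this inhibitor of monoamine oxidase (MAO), an enzyme of the outer mitochondrial membrane, at 50 mg/kg per day for 12 weeks, after the induction of diabetes in D + P. Mice were 6 to 7 weeks old at the start and aged 5 months by their labels, and a blood glucose of 17 mM or more defined diabetes. The model is diabetes from a loss of insulin, and all mice were of one strain, with no transgene or deletion in the labels. RNA was taken from heart tissue as a whole, so that fewer cells of a type and less RNA per cell cannot be told apart.

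The cycle oxidises acetyl-CoA in the mitochondrial matrix and passes the electrons on to the respiratory chain, and the heart, which works on fatty acids, glucose, lactate and ketone bodies, depends on it for nearly all of its ATP. Intermediates that leave the cycle must be replaced, a process called anaplerosis, in which pyruvate carboxylase, malic enzymes and the entry of amino acids and propionyl-CoA take part. In diabetes the heart takes a larger share of its acetyl-CoA from fatty acids and ketone bodies. The comparisons below ask whether the messenger RNAs of these enzymes differed with diabetes, with pargyline, and whether pargyline altered the difference made by diabetes.

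The number of spots well above background ran from 23556 to 29231 of 59305 per array, no array had a saturated spot (0 of 59305 each), and the spread between repeated spots of a probe had a median coefficient of variation (CV) of 3.89% to 23.2%. The 3 arrays in the first column of their slides, C + P 1, D 1 and D + P 1, had the highest values, 16.0%, 23.2% and 15.1%. All C and D arrays were on the same slide and scan while every array with pargyline was on another, so pargyline and slide cannot be told apart in either comparison of hearts with and without pargyline. The control groups lay in the first row of the slides and the diabetic groups in the second, so diabetes and slide row cannot be told apart. Of 43 marker genes in 11 cell type lists, 36 had a tested probe. The defining genes of cardiomyocytes (*Myh6*, *Tnnt2*, *Actc1*, *Ryr2*, *Pln*, *Myl2*) were all measured, while *Adipoq*, *Cidec*, *Ucp1*, *Elovl3*, *Sln*, *Cd79a* and *Myh1* had no tested probe.

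Values are log2 of the quantile-normalised signal of the brightest probe of a gene, differences are differences of these values with their standard error (SE), and intervals are 95% intervals of the difference. A gene passed the test where its limma p, adjusted over all tested probes of a comparison by the Benjamini-Hochberg method, was under 0.05. A difference of 1 on this scale is a doubling.

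None of the 29 genes passed the test in any of 6 comparisons, in which 0% to 0.107% of all probes passed. In D against C 0 of 29 passed against 0.00648% of all probes, and in D + P against C + P 0 of 29 against 0.0454%. For diabetes averaged over pargyline the numbers were 0 of 29 and 0.107%, for C + P against C 0 of 29 and 0.0324%, for D + P against D 0 of 29 and 0%, and for the interaction 0 of 29 and 0.00648%. The lowest adjusted p among the 29 was 0.26 for diabetes averaged over pargyline, 0.18 for D + P against D, and 0.47 or higher in the other 4 comparisons. At an unadjusted p under 0.05 there were 0 genes in D against C (10.8% of all probes), 2 in D + P against C + P (7.46%), 1 for diabetes averaged over pargyline (11.4%), 1 in C + P against C (4.43%), 5 in D + P against D (13.3%) and, for the interaction, 2 (7.03%). As shares of the 29 genes these were 0%, 6.9%, 3.45%, 3.45%, 17.2% and 6.9%. Over the alternatives tried the counts ran, in the same order, from 0 to 2, 0 to 3, 0 to 4, 0 to 3, 2 to 7 and 0 to 3. The lowest count for D + P against D, 2 of 29 with normexp background correction, stood beside 3366 of 30859 probes. Under the methods' t-test with Benjamini-Hochberg adjustment 0 of 29 passed in the 4 pairwise comparisons. With array weights, which count noisy arrays for less, 397 of 30859 probes passed for diabetes averaged over pargyline and 0 of the 29 genes did.

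The intervals set how large a difference could have been missed. For diabetes averaged over pargyline the half-width of the 95% interval ran from 0.21 to 0.56, with a median of 0.30, and for the brightest probes all 29 intervals lay inside -1 to 1. This did not hold for every other tested probe, since the averaged interval ran from 0.29 to 1.15 for a second probe of *Idh2* and from -1.68 to -0.22 for one of *Dlst*. In 20 of the 29 they lay inside -0.5 to 0.5. For D + P against D, with a median half-width of 0.42, 26 of 29 lay inside -1 to 1, and *Ogdh*, *Dld* and *Sdhd* reached beyond. In the interaction 20 of the 29 intervals lay inside -1 to 1, with a median half-width of 0.60.

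**Figure D1:**
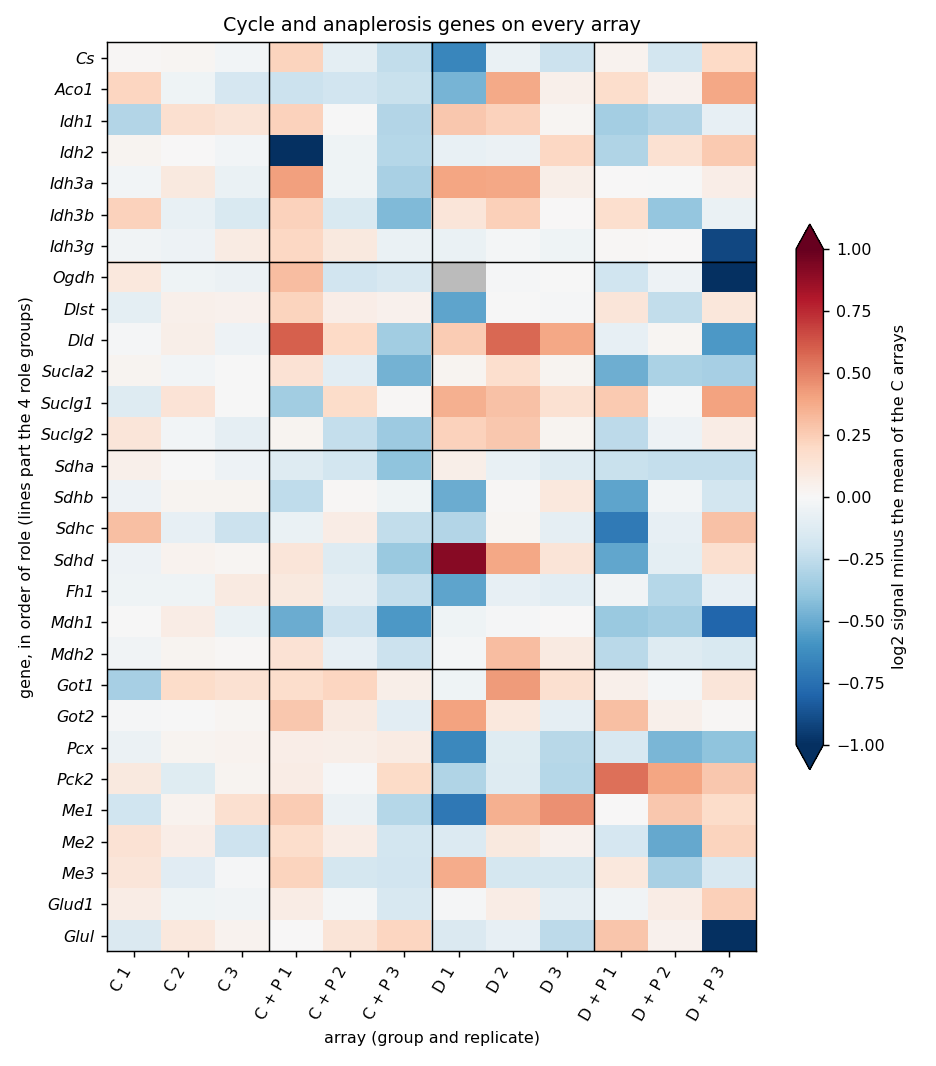
Log2 signal of the brightest probe of each of the 29 genes (rows, in order of role) on each of the 12 arrays (columns), as the difference from the mean of the 3 C arrays. Red is higher and blue lower, the scale ends at -1 and 1, and grey marks the *Ogdh* value left out for an outlier flag. The deepest blue cells stand alone in their groups, as for *Idh2* on C + P 1 and for *Ogdh* and *Glul* on D + P 3.

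The first step of the cycle is run by citrate synthase (*Cs*), which joins acetyl-CoA to oxaloacetate. *Cs* read 15.66, 15.67 and 15.62 in C, 15.00, 15.59 and 15.44 in D, 15.88, 15.55 and 15.40 in C + P and 15.69, 15.47 and 15.85 in D + P. All D arrays lay below all C arrays, by 0.04 between the nearest, while the D + P arrays lay among those of C + P. The difference was -0.31 (SE 0.19, adjusted p 0.56) in D against C and 0.06 (SE 0.19, adjusted p 0.96) in D + P against C + P.

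Isocitrate dehydrogenase 3, the NAD-dependent enzyme whose catalytic subunit is *Idh3a* and whose other subunits are *Idh3b* and *Idh3g*, commits isocitrate to the cycle. *Idh3a* read 12.87, 12.99 and 12.83 in C, 13.29, 13.28 and 12.95 in D, 13.30, 12.85 and 12.57 in C + P and 12.89, 12.89 and 12.96 in D + P. The C + P arrays spanned the values of every other group. Its difference for diabetes averaged over pargyline was 0.14, with an interval from -0.16 to 0.44. *Idh3b* (0.07) and *Idh3g* (-0.21) had intervals that included 0 as well. The low *Idh3g* value rested on D + P 3, at 13.97 against 14.89 and 14.89 on the other arrays of its group, and the second bright probe of the gene gave -0.0071.

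The NADP-dependent isocitrate dehydrogenases supply NADPH, *Idh2* in mitochondria and *Idh1* in the cytosol. *Idh2* had means of 16.50 ± 0.03 in C, 16.52 ± 0.16 in D, 16.01 ± 0.58 in C + P and 16.54 ± 0.30 in D + P (SD, n = 3). Its low C + P mean came from 1 array, C + P 1, at 15.34, against 16.46 and 16.22 on the other arrays of the group. The cytosolic aconitase *Aco1*, which also serves as an iron sensor, read 8.97, 9.00 and 8.97 in C + P and 9.36, 9.23 and 9.58 in D + P, groups that did not overlap (difference 0.41, SE 0.21, adjusted p 0.70). In D against C its difference was -0.01. The other tested *Aco1* probe had the opposite sign in D + P against C + P, at -0.56, and was well above background on 0 D + P arrays.

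The 2-oxoglutarate dehydrogenase complex turns 2-oxoglutarate into succinyl-CoA through its subunits *Ogdh*, *Dlst* and *Dld*, the last of which also serves the pyruvate dehydrogenase complex. *Ogdh* read 16.00, 15.85 and 15.84 in C, 15.89 and 15.89 in D, 16.21, 15.71 and 15.73 in C + P and 15.69, 15.85 and 14.43 in D + P. The value of D 1 was left out for an outlier flag, so D is a mean of 2 arrays, and the low mean of D + P rested on D + P 3. The difference for diabetes averaged over pargyline was -0.28, with an interval from -0.84 to 0.28. A second, nearly as bright *Ogdh* probe gave -0.07 and read 15.67 on D + P 3, the highest of that group. *Dlst* had group means between 14.55 and 14.84.

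*Dld*, the dihydrolipoamide dehydrogenase that these complexes share, read 11.44, 11.51 and 11.41 in C, 11.70, 12.03 and 11.84 in D, 12.05, 11.65 and 11.11 in C + P and 11.37, 11.47 and 10.88 in D + P. The D arrays were above all C and all D + P arrays, and the C + P arrays ran from below the C arrays to above the D arrays. The difference was 0.40 (SE 0.24, adjusted p 0.54) in D against C, -0.36 (SE 0.24, adjusted p 0.78) in D + P against C + P, and -0.77 (SE 0.34, unadjusted p 0.0469, adjusted p 0.71) for the interaction. Against D, the D + P difference was -0.62 (SE 0.24, unadjusted p 0.0274, adjusted p 0.31).

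Succinyl-CoA ligase makes ATP or GTP at the level of the substrate, with *Suclg1* as the shared subunit and *Sucla2* and *Suclg2* as the subunits for ATP and GTP. *Sucla2* read 12.06, 12.00 and 12.03 in C, 12.06, 12.19 and 12.06 in D, 12.17, 11.92 and 11.56 in C + P and 11.54, 11.71 and 11.69 in D + P. The D + P arrays lay below every C and D array and C + P 3 lay among them. Their difference from D was -0.45 (SE 0.17, unadjusted p 0.0199, adjusted p 0.29). *Suclg1* had the same difference, 0.27, in both comparisons of diabetic with control hearts, and its averaged interval ran from -0.01 to 0.55. A second, dimmer *Suclg1* probe gave -0.72 without pargyline, 0.36 under it and -0.18 averaged. That probe was well above background on 2 of 3 D arrays.

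Succinate dehydrogenase belongs both to the cycle and to the respiratory chain, as complex II, with *Sdha* the flavoprotein that oxidises succinate, *Sdhb* the iron-sulfur subunit, and *Sdhc* and *Sdhd* the membrane anchors. *Sdha* read 14.34, 14.29 and 14.24 in C, 14.35, 14.22 and 14.16 in D, 14.17, 14.11 and 13.89 in C + P and 14.07, 14.05 and 14.05 in D + P. Both pargyline groups lay below their partner groups without overlap, by -0.24 and -0.18, in comparisons that share the slide. The other 3 tested *Sdha* probes differed by 0.13, 0.26 and 0.28 in D + P against D, opposite in sign to the brightest, and by -0.19, -0.61 and -0.09 in control hearts, with its sign. The difference for diabetes averaged over pargyline was -0.02 with an interval from -0.23 to 0.19, the narrowest of the 29. *Sdhb* and *Sdhc* differed by -0.14 and -0.10 in that comparison.

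*Sdhd* read 14.37, 14.45 and 14.44 in C, 15.33, 14.80 and 14.55 in D, 14.54, 14.29 and 14.05 in C + P and 13.90, 14.32 and 14.58 in D + P. The D arrays were above all C arrays, and D + P 3 lay above D 3, so that D and D + P overlapped. The difference was 0.48 (SE 0.24, adjusted p 0.49) in D against C and -0.63 (SE 0.24, unadjusted p 0.0231, adjusted p 0.30) in D + P against D. Without the 3 arrays of the first slide column, a choice made after seeing the data, the latter was -0.23 (adjusted p 0.49), and it was -0.41 both without D 1 alone and with normexp background correction. The arrays with the highest and the lowest *Sdhd* value, D 1 and D + P 1, are among those 3.

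Fumarate hydratase (*Fh1*) makes malate, and malate dehydrogenase closes the cycle with *Mdh2* in mitochondria, while *Mdh1* in the cytosol works in the malate-aspartate shuttle that carries reducing equivalents inward. *Fh1* read 14.17, 14.17 and 14.31 in C, 13.69, 14.13 and 14.11 in D, 14.31, 14.13 and 13.98 in C + P and 14.18, 13.94 and 14.14 in D + P. The D arrays lay below the C arrays, the nearest by 0.04, and the averaged difference was -0.15 with an interval from -0.41 to 0.11.

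*Mdh2* read 16.71, 16.77 and 16.76 in C, 16.73, 17.06 and 16.83 in D, 16.89, 16.66 and 16.53 in C + P and 16.48, 16.62 and 16.59 in D + P. The D + P arrays lay below the D and the C arrays. Its averaged difference with diabetes was 0.00 (interval -0.24 to 0.23), and in D + P against D it was -0.31 (SE 0.15, adjusted p 0.40).

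*Mdh1* read 15.99, 16.06 and 15.93 in C, 15.95, 15.98 and 15.99 in D, 15.49, 15.79 and 15.42 in C + P and 15.62, 15.66 and 15.20 in D + P. The 6 arrays without pargyline lay within 0.14 of each other and all of the 6 with pargyline were below them, and each set of 6 was a slide of its own. The difference was -0.43 (SE 0.17, unadjusted p 0.0263, adjusted p 1.00) with pargyline in control hearts and -0.49 (SE 0.17, unadjusted p 0.014, adjusted p 0.27) in diabetic hearts. The other probes of *Mdh1* differed from it, with -0.27 and 0.87 in D + P against D, and the mean of all its tested probes was 0.04 in place of -0.49. In control hearts its difference was -0.27 under 75th percentile scaling, where 0 of the 29 genes had an unadjusted p under 0.05 for that comparison.

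**Figure D2:**
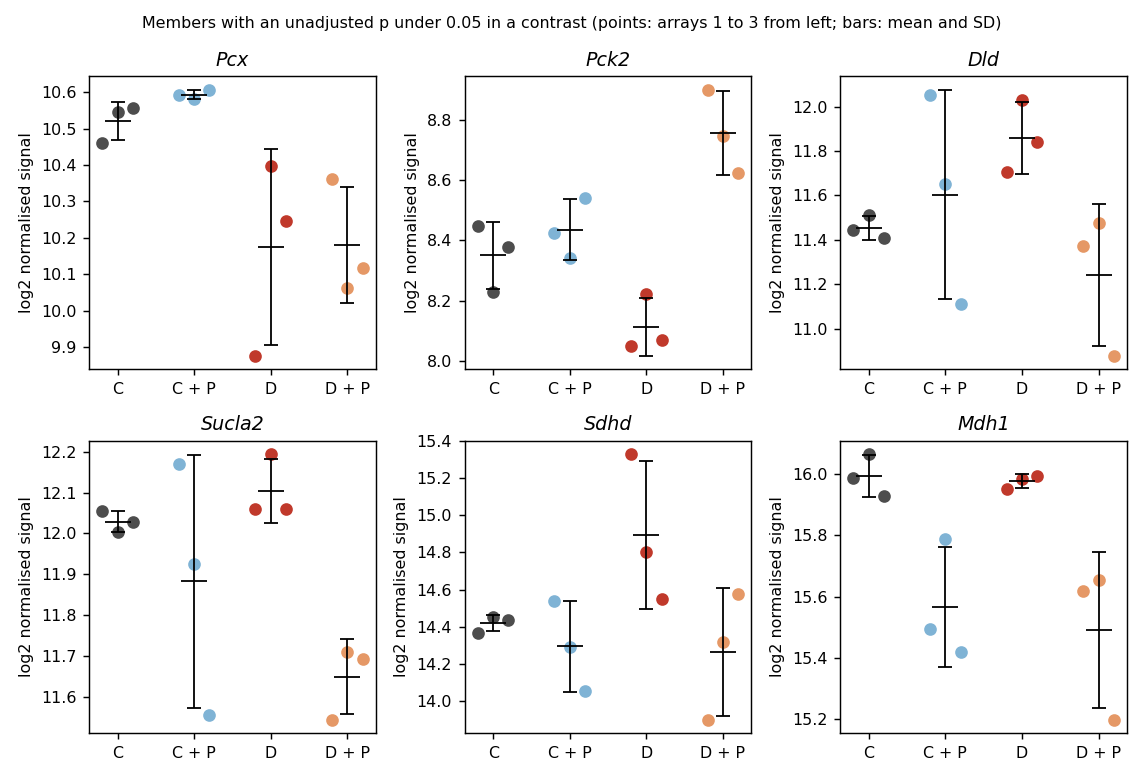
Log2 normalised signal of the 6 genes with an unadjusted p under 0.05 in at least 1 comparison, by group, with the 3 arrays as points in order of replicate number from the left and the mean and SD as bars. *Pcx* is lower in both diabetic groups, *Pck2* is lowest in D and highest in D + P, and *Mdh1* divides by pargyline and slide.

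Among the genes that fill and drain the cycle, *Pcx* encodes pyruvate carboxylase, the mitochondrial enzyme that makes oxaloacetate from pyruvate. *Pcx* read 10.46, 10.55 and 10.56 in C, 9.88, 10.40 and 10.25 in D, 10.59, 10.58 and 10.61 in C + P and 10.36, 10.06 and 10.12 in D + P. Every diabetic array lay below every array without diabetes, and *Pcx* was the only 1 of the 29 genes to part the groups the same way in both comparisons of diabetic with control hearts (2.5% of all probes did). The 6 arrays without diabetes spanned 0.15 and the 6 diabetic arrays 0.52.

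The *Pcx* difference was -0.35 (SE 0.16, adjusted p 0.47) in D against C, -0.41 (SE 0.16, unadjusted p 0.0277, adjusted p 0.63) in D + P against C + P, and -0.38 (SE 0.11, unadjusted p 0.00721, adjusted p 0.26) averaged over both, with an interval from -0.63 to -0.13, which is 1.30-fold lower. Over the alternatives tried the averaged difference stayed negative, between -0.50 and -0.15, and its adjusted p ran from 0.0892 to 0.68. The value nearest 0, -0.15, was that with normexp background correction, which gave -0.24 under pargyline. With pargyline *Pcx* differed by 0.07 in control and 0.01 in diabetic hearts. *Pcx* has 1 probe on the array, at chromosome 19, 4621610 to 4621669 on the plus strand (mm9).

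*Pck2* encodes the mitochondrial phosphoenolpyruvate carboxykinase, which takes oxaloacetate out of the cycle as phosphoenolpyruvate. It read 8.45, 8.23 and 8.38 in C, 8.05, 8.22 and 8.07 in D, 8.42, 8.34 and 8.54 in C + P and 8.90, 8.75 and 8.62 in D + P. All D arrays were below all C arrays, the nearest by 0.0054, and all D + P arrays were above all C + P arrays, the nearest by 0.08. Opposite directions without overlap of this kind were met by 1 of the 29 genes and by 0.836% of all probes.

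The *Pck2* difference was -0.24 (SE 0.14, adjusted p 0.54) in D against C and 0.32 (SE 0.14, unadjusted p 0.0455, adjusted p 0.66) in D + P against C + P. The interaction was 0.56 (SE 0.20, unadjusted p 0.0182, adjusted p 0.68), with an interval from 0.12 to 1.00. Between D and D + P it was 0.64 (SE 0.14, unadjusted p 0.000921, adjusted p 0.18), which is 1.56-fold higher, and in C + P against C 0.08 (adjusted p 1.00). Of the 29 genes *Pck2* was the only 1 whose D + P arrays all lay above the D arrays (7.92% of all probes). The second probe of *Pck2* passed the scanner's limit for signal well above background on 0 of the 12 arrays, and its differences are not given. The brighter probe lies at chromosome 14, 56167465 to 56167524 on the plus strand (mm9).

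The promoters of *Pck2* and *Pcx* are shown because *Pcx* had the lowest unadjusted p of the 29 for diabetes averaged over pargyline and *Pck2* both for the interaction and for D + P against D. They are the 250 bases before each start site in RefSeq, build GRCm38.p6, and *Pcx* has a pair of start sites there. In *Pck2*, at chr14:55540016-55540265 on the plus strand, capitals mark a match to TGATGNAA on the opposite strand, the core of the element through which ATF4 acts on genes of amino acid stress. In *Pcx*, at chr19:4510222-4510471 and chr19:4594069-4594318 on the plus strand, capitals mark CACGTG, the E-box letters, found before the upstream start only.
*Pck2*: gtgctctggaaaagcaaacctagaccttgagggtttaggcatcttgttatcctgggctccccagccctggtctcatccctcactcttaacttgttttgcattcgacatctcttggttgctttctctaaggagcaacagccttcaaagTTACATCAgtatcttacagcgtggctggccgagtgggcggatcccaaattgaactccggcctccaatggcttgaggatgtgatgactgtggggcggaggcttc
*Pcx*, upstream start: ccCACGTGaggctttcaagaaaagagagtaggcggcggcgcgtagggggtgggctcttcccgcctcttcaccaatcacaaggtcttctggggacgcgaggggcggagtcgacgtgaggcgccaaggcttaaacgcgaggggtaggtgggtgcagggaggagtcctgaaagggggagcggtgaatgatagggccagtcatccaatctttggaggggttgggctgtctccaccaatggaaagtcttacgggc
*Pcx*, downstream start: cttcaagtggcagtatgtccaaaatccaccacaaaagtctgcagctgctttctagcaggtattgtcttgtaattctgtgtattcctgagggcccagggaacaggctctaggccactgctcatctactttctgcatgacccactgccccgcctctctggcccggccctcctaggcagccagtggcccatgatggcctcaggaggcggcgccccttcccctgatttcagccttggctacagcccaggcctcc

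Windows of 300 bases, 250 before and 50 after the start site, were matched for 26 of the 29 genes, and both strands were searched. TGATGNAA was held by *Got1*, *Me3* and *Pck2*, 3 of 26 or 11.5%, against 4.51% of 27025 genes with a window. CACGTG was held by *Ogdh* and *Pcx*, 7.69% against 8.09% of all genes. AAGGTCA, the half-site bound by estrogen-related receptors, was held by *Got1*, *Ogdh* and *Sdhd*, 11.5% against 5.38%. A match in letters is a description only.

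The malic enzymes join malate and pyruvate, *Me1* in the cytosol and *Me2* and *Me3* in mitochondria. *Me1* read 11.57, 11.81 and 11.93 in C, 11.06, 12.13 and 12.22 in D, 12.02, 11.72 and 11.49 in C + P and 11.78, 12.04 and 11.95 in D + P. D 1 was the lowest and D 3 the highest of all 12 arrays, so the D group alone covered the full range. The averaged difference was 0.11 with an interval from -0.34 to 0.55. *Me2* and *Me3* differed by -0.09 and -0.03.

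The aspartate aminotransferases *Got1* (cytosol) and *Got2* (mitochondria) exchange aspartate with oxaloacetate, glutamate dehydrogenase (*Glud1*) makes 2-oxoglutarate from glutamate, and glutamine synthetase (*Glul*) takes glutamate away. *Got1* read 14.26, 14.78 and 14.74 in C, 14.55, 15.01 and 14.75 in D, 14.77, 14.81 and 14.65 in C + P and 14.64, 14.57 and 14.72 in D + P. All groups overlapped, and the averaged difference was 0.04 with an interval from -0.24 to 0.32.

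*Glul* read 12.47, 12.72 and 12.65 in C, 12.48, 12.53 and 12.35 in D, 12.62, 12.75 and 12.83 in C + P and 12.90, 12.66 and 11.23 in D + P. The D + P mean of 12.26 ± 0.90 rested on D + P 3. The other *Glul* probes read 9.24, 9.48 and 9.62, and 6.47, 6.14 and 6.57, in D + P, with D + P 3 the highest of its group on both. *Glud1* differed by 0.06, with an interval from -0.16 to 0.28, and *Got2* by 0.09.

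**Figure D3:**
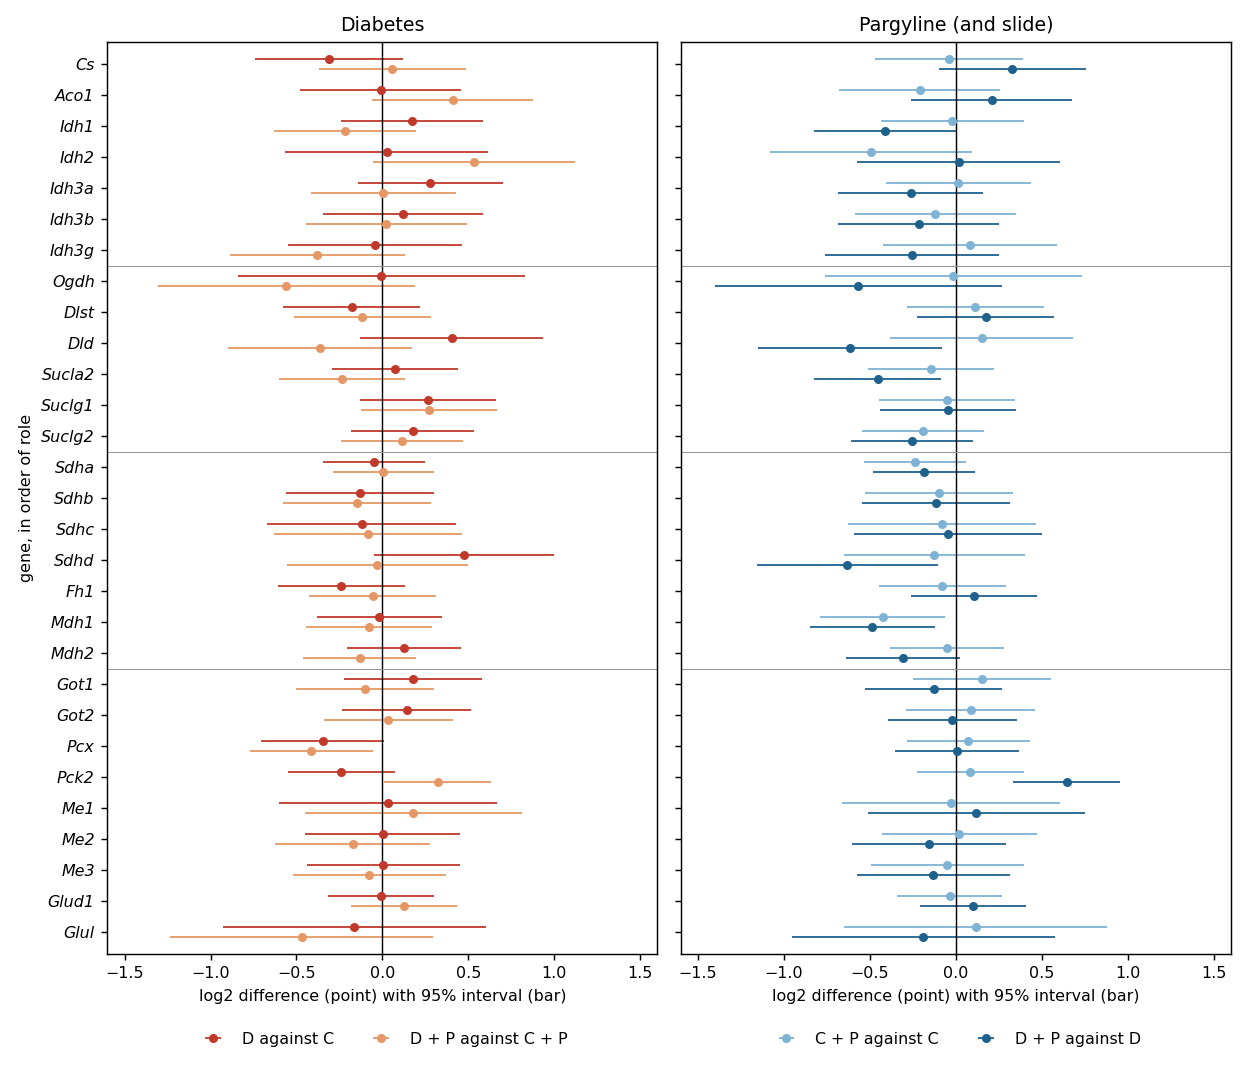
Log2 differences of the 29 genes with 95% intervals, for diabetes on the left (D against C in red, D + P against C + P in orange) and for pargyline, which shared the slide, on the right (C + P against C in light blue, D + P against D in dark blue). Points on the left lie on both sides of 0, and on the right 20 of the 29 dark blue points lie below 0.

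As a list, the genes were centred near 0 with diabetes. In D against C 15 lay above 0 and 14 below, with a median of 0.00 (all probes -0.01, 48.9% above 0), and in D + P against C + P 12 lay above and 17 below, with a median of -0.08 (all probes 0.01, 51% above 0). With each array scaled to its 75th percentile in place of quantile normalisation, D against C turned to 24 above and 5 below with a median of 0.17, and D + P against C + P to 8 above and 21 below with -0.11. The median over all probes moved by under 0.05 between these scalings. Averaged over pargyline the list had 13 above and 16 below, median -0.02 (all probes -0.01, 48.5% above 0), and 15 above and 14 below, median 0.01, under the other scaling.

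Groups did not overlap for 8 of 29 genes in D against C (22.3% of all probes), with *Dld*, *Sucla2*, *Suclg1* and *Sdhd* higher in D and *Cs*, *Fh1*, *Pcx* and *Pck2* lower. In D + P against C + P they did not overlap for 3 of 29 (13.9%), with *Aco1* and *Pck2* higher and *Pcx* lower.

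With pargyline in diabetic hearts 20 of the 29 differences (D + P against D) lay below 0 and 9 above, with a median of -0.13, while 49.9% of all probes lay above 0 with a median of 0.00. Under the 75th percentile scaling 25 lay below with a median of -0.27. Groups did not overlap for 8 genes (17%), 7 of them lower in D + P (9.12% of all probes), namely *Idh1*, *Ogdh*, *Dld*, *Sucla2*, *Sdha*, *Mdh1* and *Mdh2*, and *Pck2* higher. By role the median was -0.22 from acetyl-CoA to 2-oxoglutarate, -0.36 from 2-oxoglutarate to succinate, -0.18 from succinate to oxaloacetate and -0.02 for anaplerosis and exchange.

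In C + P against C, on the same pair of slides, 10 lay above 0 and 19 below, with a median of -0.04 (all probes -0.01, 49% above 0), and 5 genes did not overlap (15.4%), *Pcx* higher and *Aco1*, *Idh2*, *Sdha* and *Mdh1* lower. The 75th percentile scaling gave 20 above and 9 below with a median of 0.02. For the interaction 11 lay above and 18 below, with a median of -0.07 (all probes 0.00, 49.6% above 0), and under that scaling 4 above and 25 below with -0.29.

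**Figure D4:**
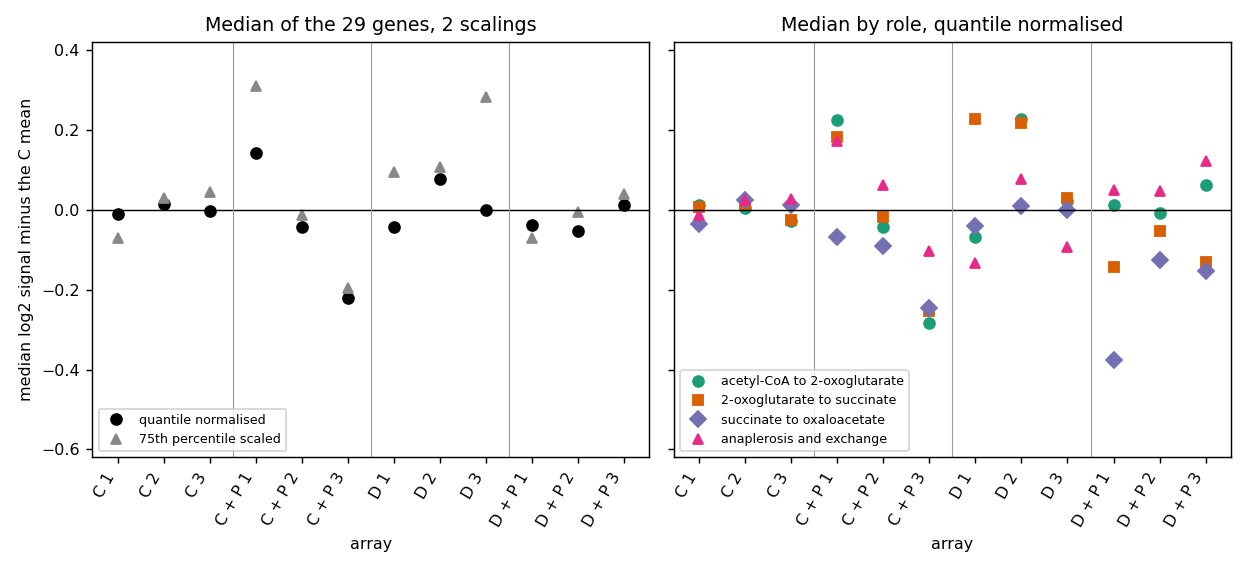
Median over the 29 genes of the log2 signal minus the C mean, per array, on the left under quantile normalisation (circles) and 75th percentile scaling (triangles), and on the right by role under quantile normalisation. C + P 1 at 0.14 and C + P 3 at -0.22 are the highest and lowest arrays on the left under quantile normalisation, so the C + P group spans more than the other groups.

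The list medians of single arrays show how far arrays of a group lay apart. C + P 1 lay at 0.14, C + P 2 at -0.04 and C + P 3 at -0.22 from the C mean, and the D arrays lay at -0.04, 0.08 and 0.00. The D + P arrays lay at -0.04, -0.05 and 0.01. Without C + P 1 the list median was -0.15 for pargyline in control hearts and 0.03 for D + P against C + P.

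Of the marker lists, the endothelial, smooth muscle and atrial lists did not overlap between D + P and D. Relative to C, the endothelial list (4 of 4 tested) had a median of 0.06 to 0.44 on the D + P arrays and -0.27 to 0.05 on the D arrays, with *Kdr* 0.75 and *Tie1* 0.59 higher in D + P against D. The smooth muscle list (3 of 3) lay at 0.13 to 0.19 against -0.44 to -0.01, but its members differed, with 1.59 for *Myh11*, 0.13 for *Tagln* and -0.32 for *Acta2* in D + P against D. The atrial list (2 of 3, without *Sln*), in which *Myl7* was well above background on 1 array of each group, lay at -0.88 to 0.08 against 0.33 to 0.36, with C at -0.33 to 0.25 and C + P at 0.10 to 0.67. The white adipocyte list (4 of 6, without *Adipoq* and *Cidec*) lay at -0.61 to 0.18 against 0.08 to 0.73, ranges that overlapped, with *Plin1* and *Retn* well above background on 0 arrays. The cardiomyocyte list (6 of 6) overlapped too, at -0.16 to 0.04 against -0.06 to 0.14. In the interaction *Kdr* had 0.61, *Tie1* 0.76 and *Myh11* 1.36 (adjusted p 0.70, 0.71 and 0.66), the sign of *Pck2*, while *Pecam1*, *Cdh5*, *Tagln* and *Acta2* lay between -0.26 and 0.08. The part of these lists in the D + P against D values and in the *Pck2* interaction was not tested.

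With diabetes, 4 lists stood apart the same way without overlap in both comparisons of diabetic with control hearts. Both diabetic groups lay low in the macrophage list (4 of 4), at -0.44 to -0.19 in D and -0.58 to -0.37 in D + P against -0.19 to 0.30 in C and -0.14 to 0.40 in C + P. The skeletal muscle list (3 of 4, without *Myh1*) lay at -0.69 to -0.16 in D and -1.13 to -0.19 in D + P, against -0.10 to 0.10 and 0.17 to 0.32. In that list *Myh4* was well above background on 2 arrays of C and of D + P and on 0 of C + P and D. The fibroblast list (4 of 4) lay higher with diabetes, at 0.13 to 0.23 in D and 0.02 to 0.31 in D + P, against -0.065 to 0.04 in C and -0.26 to -0.03 in C + P. Its members differed. Without and under pargyline *Lum* had 0.42 and 0.44, *Pdgfra* 0.38 and 0.52, *Dcn* 0.04 and 0.24, but *Col1a1* -0.17 and -0.27. The brown adipocyte list (1 of 3, *Cidea* without *Ucp1* and *Elovl3*) also lay higher, at 0.24 to 0.51 and 0.22 to 0.51 against -0.04 to 0.05 and 0.05 to 0.18. The cardiomyocyte list as a whole overlapped, while its member *Ryr2* differed without overlap, by -1.12 without pargyline (adjusted p 0.31) and -0.85 under it (adjusted p 0.56). Its members *Myh6* (0.18 and 0.15), *Pln* (0.35 and 0.12) and *Myl2* (0.18 and 0.08) went the other way. *Tnnt2* had -0.24 and -0.37, and *Actc1* 0.03 and 0.02. The part of these lists and of *Ryr2* in the *Pcx* values was not tested.

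Beside the brightest probes, 27 other probes of the 29 genes were tested. In D against C, where none of the brightest probes did, 4 of the 27 had an unadjusted p under 0.05 (10.8% of all probes). They belonged to *Idh2*, *Dlst*, *Mdh1* and *Got1*, with 0.91, -1.34, -0.90 and 0.54 against 0.02, -0.18, -0.02 and 0.18 for the brightest probes. The adjusted p of these 4 was 0.34 or higher. For diabetes averaged over pargyline 19 of the 27 had the sign of the brightest probe of their gene. An unadjusted p under 0.05 was met by 3 (11.4% of all probes), for *Idh2*, *Dlst* and *Got1*, all with that sign. They are named after their values were seen, and the *Dlst* probe was well above background on 1 of 3 D arrays. The second *Idh2* probe read 12.25, 12.99 and 13.14 in C, 14.02, 13.71 and 13.36 in D, 12.91, 13.10 and 12.60 in C + P and 13.07, 13.51 and 13.66 in D + P. Its D arrays were all above its C arrays, and the averaged difference was 0.72, while the brightest *Idh2* probe gave 0.28 with an interval from -0.14 to 0.70. For D + P against D 13 of the 27 had the sign of the brightest probe, and probes of *Aco1* and *Suclg1* opposed it at an unadjusted p under 0.05, of which that of *Aco1* was well above background on 0 D + P arrays and that of *Suclg1* on 2 of 3 D arrays.

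The cycle is fed and drained by further genes, and 37 of these were listed, 34 of them with a tested probe (*Gls2*, *Slc25a10* and *Pck1* had none). None of the 34 passed the test in any of the 6 comparisons. At an unadjusted p under 0.05 there were 3 for diabetes averaged over pargyline (11.4% of all probes). *Gpt2*, the mitochondrial alanine aminotransferase that makes pyruvate from alanine, read 8.75, 8.27 and 8.19 in C, 7.75, 8.12 and 7.79 in D, 8.61, 7.97 and 8.02 in C + P and 7.77, 7.50 and 7.84 in D + P. Like *Pcx* it was lower without overlap in both diabetic groups, with an averaged difference of -0.50 (SE 0.16, adjusted p 0.28).

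*Acss1*, the mitochondrial acetyl-CoA synthetase that activates acetate, differed by 0.32 (SE 0.13, adjusted p 0.39). The third was *Ogdhl*, a paralogue of *Ogdh*, whose probe was well above background on 3 arrays of C, 2 of C + P, 1 of D and 0 of D + P, so that its difference is not given. The pyruvate dehydrogenase genes *Pdha1*, *Pdhb* and *Dlat* differed by 0.29, -0.13 and -0.06.

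For D + P against D 28 of the 34 lay below 0, with a median of -0.21, and 7 had an unadjusted p under 0.05, all lower in D + P (6.43% of all probes). They were *Pdhb* and *Pdhx* of the pyruvate dehydrogenase complex, the mitochondrial pyruvate carrier subunit *Mpc2*, the ketone body enzyme *Bdh1*, the methylmalonyl-CoA mutase gene *Mut*, and *Sdhaf1* and *Sdhaf3*, which assemble succinate dehydrogenase. *Bdh1* read 12.15, 12.01 and 12.11 in C, 12.61, 12.18 and 12.15 in D, 12.06, 12.43 and 12.26 in C + P and 12.01, 11.54 and 11.49 in D + P. Its D + P arrays lay below all D and all C + P arrays, with -0.79 (SE 0.27, adjusted p 0.67) for the interaction and -0.63 (SE 0.19, adjusted p 0.23) in D + P against D. *Pdhb* read 14.83 on all 3 D + P arrays and 15.12, 15.16 and 15.14 on the D arrays, a difference of -0.31 (SE 0.13, adjusted p 0.35).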

How the data were processed

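The deposited scanner files give the intensity of each spot of single-channel Agilent mouse expression arrays, hybridised with Cy3-labelled RNA (200 ng per sample). Per the file headers, intensity was made by Feature Extraction 12.0.0.7, while the paper's methods name an earlier version. By the spot values, a fitted spatial surface, and not the local background, was subtracted from each spot. The signal was divided by a multiplicative trend, with no scaling between arrays. The authors also deposited an intensity table of 47757 spots, quantile normalised, which was used as an alternative only.

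Control spots and spots with an outlier flag were left out. Intensity was quantile normalised on the log2 scale between the 12 arrays, and replicate spots were averaged by probe. A probe was tested if the deposited flags called it positive and significant on 50% or more of each group's arrays, and a gene was read from its brightest tested probe. All 30859 tested probes entered limma 3.58.1 (R 4.3.3) with a mean per group, leaving 8 residual and 2.62 prior degrees of freedom. Contrasts were diabetes without pargyline (D against C), diabetes under pargyline (D + P against C + P) and their mean, pargyline in control and in diabetic mice, and the interaction, the second diabetes contrast minus the first. Tests were two-sided, with Benjamini-Hochberg adjustment at 0.05. Precision is set by having 3 arrays a group, for which an exact permutation test could give no p below 0.1.

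Genes given with all 12 values are *Cs*, *Idh3a*, *Ogdh*, *Sdha*, *Fh1*, *Mdh2*, *Pcx*, *Me1*, *Got1*, *Glul* and those with an unadjusted p under 0.05 in any contrast. Genes of the wider pathway list are named where they passed the adjusted threshold or had an unadjusted p under 0.05 for diabetes averaged over pargyline. A gene's other probes are named where their sign was opposite there at that p, and further genes and probes were named after their values were seen. The genes and lists were chosen with earlier results of these data known. The values of 1 gene of the wider list are not reported here. Probe positions are as deposited (mm9), without the exon or UTR. Promoters are from RefSeq tables of GRCm38.p6, another build, and no position was carried across. Alternatives covered scaling, background, probe filters, outlier flags, array weights, an intensity trend, blocks, the groups fitted, the methods' t-test, the authors' table, the choice of probe and leaving out arrays. On simulated data, with 200 of 30819 probes changed for diabetes averaged over pargyline, the fit recovered 0%, 55.5% and 87% of those changed by 0.5, 1 and 2 on the log2 scale.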

Additional observations from a re-analysis of the deposited data

Results flagged for a closer look

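*Pck2*, the mitochondrial phosphoenolpyruvate carboxykinase, differed in opposite directions between diabetic and control hearts without and with pargyline. Every D array lay below every C array (-0.24) and every D + P array lay above every C + P array (0.32). The difference between these effects, the interaction, was 0.56 (SE 0.20) and did not pass the limma test over all probes (unadjusted p 0.0182, adjusted p 0.68). The nearest D and C arrays lay only 0.0054 apart, and over the alternatives tried the interaction ran from 0.45 to 0.82, with adjusted p from 0.36 to 0.99. Among the endothelial and smooth muscle markers *Kdr* (0.61), *Tie1* (0.76) and *Myh11* (1.36) had an interaction of the same sign. *Pecam1* (0.05) and *Tagln* (0.08) lay near 0, and *Cdh5* (-0.06) and *Acta2* (-0.26) had the opposite sign. The part of these markers in the *Pck2* values was not tested.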

How the results depend on the processing

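None of the 29 genes (0) passed the adjusted threshold under any alternative run, 28 for each pairwise comparison, 26 for diabetes averaged over pargyline and 25 for the interaction. The median difference of the list was less stable. Scaling each array to its 75th percentile gave 0.17 for D against C (0.00 as reported), -0.27 for D + P against D (-0.13) and -0.29 for the interaction (-0.07). Normexp background correction gave -0.18 for the interaction. Setting values that were not positive and significant to missing gave -0.12 for D against C and 0.055 for the interaction. Leaving out the 3 arrays in the first slide column, chosen after seeing the data, gave -0.15 for C + P against C. The cause was not tested. Leaving out 1 array at a time, the median for D + P against C + P ran from -0.15 (without C + P 3) to 0.030 (without C + P 1), and that for C + P against C from -0.15 (without C + P 1) to 0.032 (without C + P 3). That for D + P against D ran from -0.20 (without D 1) to -0.087 (without D + P 2). For the interaction the median ran from -0.16 (without D + P 1) to -0.0073 (without D + P 2). *Mdh1* turned from -0.49 to 0.038 for D + P against D when its tested probes were averaged.

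Same-numbered arrays of different groups correlated weakly in their deviations from the group mean (r from -0.20 to 0.20 over 18 pairs, 4 above 0.1). No array (0) matched its own number best in every group, but each C array matched the C + P array of its number best (0.17, 0.05 and 0.20). With 3 arrays a group these values cannot settle whether the numbers pair the samples, and the main fit used no pairing. With the replicate number as a block, 0 genes passed in each comparison, and the list median was 0.0064 for D against C and -0.13 for D + P against D.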
